A study of Arabidopsis thaliana with 91 samples.

Results

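The genes described here were 8 nuclear genes of photosynthesis that rank among the most highly transcribed genes of green leaves: the Rubisco small subunit genes RBCS1A (AT1G67090), RBCS1B (AT5G38430), RBCS2B (AT5G38420) and RBCS3B (AT5G38410), the Rubisco activase gene RCA (AT2G39730), LHCA1 (AT3G54890), GAPA (AT3G26650) and PSBO1 (AT5G66570). They were chosen by name, and each was taken as its annotated TAIR10 span plus 1 kb upstream. They are 8 of the 27444 nuclear protein-coding genes of the annotation. Every peak over them was read in 50 ChIP-seq peak lists from leaves of Arabidopsis plants of the Col-0 ecotype, 4 to 5 weeks old, of which 29 lists were for H3K4me3, 6 for H3K14ac, 7 for the histone variant H2A.Z and 8 for a Myc tag.

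The lists covered 27 groups spread over 11 numbered sets of the labels. SDG2-ZF plants carried a part of the H3K4 methyltransferase SDG2 joined to a zinc finger designed against the FWA gene, either in Col-0 or in rdd, the ros1 dml2 dml3 triple mutant in DNA demethylation. SDG2(H1866K)cd plants carried a form of the SDG2 fusion with a changed catalytic residue, and SunTag-SDG2 recruited SDG2 through a guide RNA in the rdr6 mutant, beside a line with no guide. TRBIP1-ZF was set against its fwa background, and TRBIP1-dCAS9-MQ1v, in which a bacterial DNA methyltransferase was added, against fwa rdr6 beside dCAS9-MQ1v alone. Myc lists came from Myc-ROS1 with and without SDG2-ZF, Myc-JMJ14 with and without TRBIP1-ZF, and untagged Col-0. Controls carried the same background mutations as the transgenic line, and SDG2-ZF was driven by a ubiquitin promoter active in most tissues. Whole leaves were sampled. In such bulk leaf samples, fewer cells that carry a mark and less of the mark per cell cannot be told apart. The labels number the samples of a group but do not say that each came from separate plants, so the spread behind a p-value may be technical.

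Rubisco, the enzyme that fixes CO2 in the Calvin cycle, is built from large subunits encoded in the chloroplast and small subunits encoded in the nucleus by the RBCS genes. Rubisco activase removes inhibitory sugar phosphates from its active sites, and GAPA encodes a subunit of the chloroplast glyceraldehyde-3-phosphate dehydrogenase, which carries out the reduction step of the cycle. LHCA1 encodes an antenna protein of photosystem I, and PSBO1 the manganese-stabilizing protein of the oxygen-evolving complex of photosystem II. H3K4me3 marks the first nucleosomes of transcribed genes, H3K14ac is an acetyl mark of active chromatin, and H2A.Z lies at the start of many genes and over the body of genes that are silent or respond to the environment. ROS1 removes DNA methylation, and JMJ14 removes methyl groups from H3K4.

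RBCS1A lies alone on chromosome 1, whereas RBCS3B, RBCS2B and RBCS1B stand in a row on the minus strand of chromosome 5, at 15376988 to 15378642, 15380907 to 15382071 and 15383167 to 15385320. The coding sequences of these chromosome 5 genes were 96.7% to 97.3% identical to each other, and RBCS1A was 90.1% to 90.5% identical to them. The second coding exon of each gene, 135 bases long, is shown because peaks in near-identical copies depend on where the aligner placed the reads. The sequences are from the TAIR10 reference, minus strand, 5′ to 3′, and capitals mark bases that differ from RBCS3B.
RBCS3B AT5G38410 chr5:15377911-15378045: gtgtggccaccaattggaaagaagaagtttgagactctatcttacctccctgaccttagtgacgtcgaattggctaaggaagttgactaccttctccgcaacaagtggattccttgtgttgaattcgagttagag
RBCS2B AT5G38420 chr5:15381583-15381717: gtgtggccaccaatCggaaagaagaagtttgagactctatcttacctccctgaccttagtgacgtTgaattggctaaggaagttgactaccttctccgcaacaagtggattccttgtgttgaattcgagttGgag
RBCS1B AT5G38430 chr5:15384761-15384895: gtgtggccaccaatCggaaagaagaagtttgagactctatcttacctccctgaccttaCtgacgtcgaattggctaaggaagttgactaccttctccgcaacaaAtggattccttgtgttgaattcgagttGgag
RBCS1A AT1G67090 chr1:25048838-25048972: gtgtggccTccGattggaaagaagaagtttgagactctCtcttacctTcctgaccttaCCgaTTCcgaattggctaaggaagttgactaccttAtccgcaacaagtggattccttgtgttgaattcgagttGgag
RBCS2B differed from RBCS3B in this exon at 3 bases, RBCS1B at 4 and RBCS1A at 11. Of all stretches of 50 bases in the gene span, 14.5% in RBCS1B, 13.4% in RBCS2B and 18.0% in RBCS3B occurred elsewhere in the genome without a mismatch. Of stretches of 150 bases the shares were 8.03% in RBCS1B and 10.7% in RBCS3B. No stretch of either length in RBCS1A, RCA, LHCA1, GAPA or PSBO1 occurred again, and none of 150 bases in RBCS2B. Values of RBCS1B, RBCS2B and RBCS3B are therefore uncertain to the extent that reads from the copies were exchanged.

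The value of a gene in a list was the fold enrichment of its strongest peak as the authors' peak caller gave it. Because the scale of the folds differed between sets, with median folds per H3K4me3 list from 1.67 to 6.45, each gene was also given a percentile, which is the percent of all coding genes with a lower strongest fold in the same list, and a gene with no peak is at 0. The lists held between 808 and 30556 nuclear peaks and were deposited at 2 q-value thresholds. Among them the H3K14ac list of rdd held 5635 peaks against 22435 or more in the other H3K14ac lists, and that of SDG2(H1866K)cd replicate 3 held 9647 against 22285 or more in its set. As a check of the tissue, 9 seed storage and oleosin genes, which are silent in leaves, were read in the same way. An H3K4me3 peak on the gene itself in each of the 4 Col-0 lists was found at 0 of the 9. It was found at 8 of 8 photosynthesis genes and at 51.6% of all coding genes. With the upstream kilobase the counts were 2 of 9 and 8 of 8, against 56.4%. The seed genes were not free of peaks, because 0 of the 9 lacked a peak over this region in all 4 lists. Their median percentile on the gene itself was 18.8 in Col-0, against 91.3 for the 8 photosynthesis genes.

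**Figure D1:**
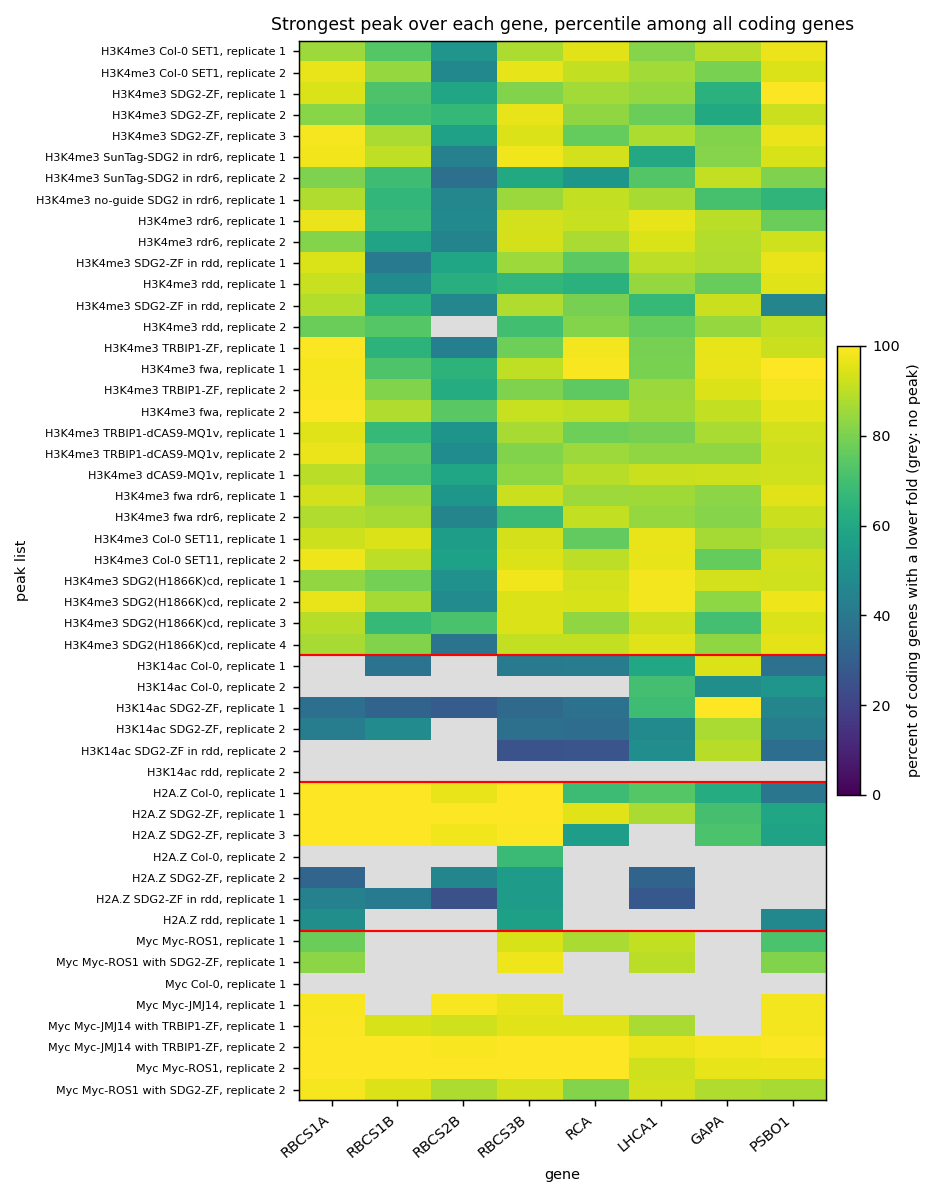
Percentile of the strongest peak over each of the 8 genes (columns) in each of the 50 peak lists (rows), on a scale of 0 to 100, with red lines between H3K4me3, H3K14ac, H2A.Z and Myc. Grey cells have no peak. RBCS2B was the lowest of the 8 genes in 24 of the 29 H3K4me3 lists, and the 4 RBCS genes stood at 96.6 or above in the 3 H2A.Z lists of set 4.

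All 8 photosynthesis genes carried H3K4me3 in nearly every line. A peak was present in 231 of the 232 pairs of a gene and a list, the exception being RBCS2B in rdd replicate 2. That library was sequenced less deeply than SDG2-ZF in rdd beside it. Its depth was close to that of rdd replicate 1, whose list had a peak at RBCS2B. The rdd list of replicate 2 held 12992 peaks and that of replicate 1 held 16158. The part of depth was not tested. Thus 7 of the 8 genes had a peak in all 29 lists, against 30.7% of all coding genes. When peaks were held to a −log10 q of at least 5, 2 of the 8 genes, LHCA1 and PSBO1, kept a peak in all 29 lists, against 7.06% of all coding genes. In that count SDG2(H1866K)cd replicate 3 had a peak on 2 of the 8 genes, and every other list had one on at least 7.

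The genes differed in level. The median percentile over the 29 lists was 93.2 for RBCS1A and 93.1 for PSBO1, followed by 90.6 for RBCS3B, 87.5 for RCA, 85.7 for LHCA1, 84.0 for GAPA, 73.8 for RBCS1B and 51.7 for RBCS2B. Neighbors in the upper part of this order exchanged places from list to list. RBCS1A stood above PSBO1 in 14 of 29 lists, PSBO1 above RBCS3B in 18, RBCS3B above RCA in 19, RCA above LHCA1 in 13, LHCA1 above GAPA in 18 and GAPA above RBCS1B in 19. RBCS2B, by contrast, was below RBCS1B in 26 lists and below RBCS1A, RBCS3B, RCA and LHCA1 in all 29. Among the small subunit genes the mark thus ranged from near the middle of all coding genes at RBCS2B to near the top at RBCS1A.

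In Col-0 of set 1, the folds in replicates 1 and 2 were 6.202 and 7.69 for RBCS1A, 5.20 and 6.48 for RBCS1B, 3.45 and 3.41 for RBCS2B, and 6.43 and 7.64 for RBCS3B. RBCS2B was below each of the other small subunit genes in both libraries, with no overlap. In the same libraries RCA had folds of 7.57 and 7.004, LHCA1 of 5.86 and 6.64, GAPA of 6.68 and 6.16, and PSBO1 of 8.05 and 7.43. The higher value of LHCA1 came from a peak upstream of the gene, and on the gene it was 5.08. In Col-0 of set 11, whose folds were lower for all genes, RBCS2B had 1.88 and 1.84 and the other 7 genes lay between 2.14 and 2.70. The percentiles of RBCS2B in the 4 Col-0 lists were 52.2, 46.8, 55.5 and 57.2, so that its place was similar in both sets. Its span of 1165 bp was the shortest of the 8 genes, and its share of repeated stretches of 50 bases was the smallest of the 3 genes on chromosome 5.

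On the genes, the H3K4me3 peaks began at a median of −18 bp (PSBO1) to 203 bp (RBCS1A) from the annotated start and covered a median of 80.2% of the gene. The summit lay in a coding exon in 192 of 231 cases and in an intron in 37, at a median of 479 bp after the start. It was at a median of 343 bp in PSBO1, 402 bp in LHCA1, 413 bp in RBCS2B and 479 bp in RBCS3B. It lay further in at 717 bp in GAPA, 726 bp in RCA, 737 bp in RBCS1B and 1061 bp in RBCS1A. RBCS1A has a long annotated leader, with its coding sequence starting 418 bp after the annotated start, and its summits ranged from 467 to 1212 bp.

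The upstream kilobase of LHCA1 and GAPA holds part of a neighbor, and there the strongest peak was often not on the gene. The region of RCA also overlaps another coding gene, AT2G39725, but its strongest H3K4me3 peak touched RCA in all 29 lists. At LHCA1 the strongest H3K4me3 peak lay upstream only in 17 of 29 lists, over CXIP1 (AT3G54900), a glutaredoxin gene on the same strand. At GAPA it did so in 12 of 29, over LWD2 (AT3G26640), a gene of the circadian clock. Over all assays the peaks upstream of GAPA overlapped LWD2 in 31 of 31 lists and AT3G26630, which is transcribed away from LWD2, in 27. At PSBO1 it did so in 2 of 29 and at the other 5 genes in 0. When only peaks touching the gene span were taken, the median percentiles were 82.2 for LHCA1, 84.9 for GAPA and 94.3 for PSBO1, and all 3 still had a peak in all 29 lists.

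**Figure D2:**
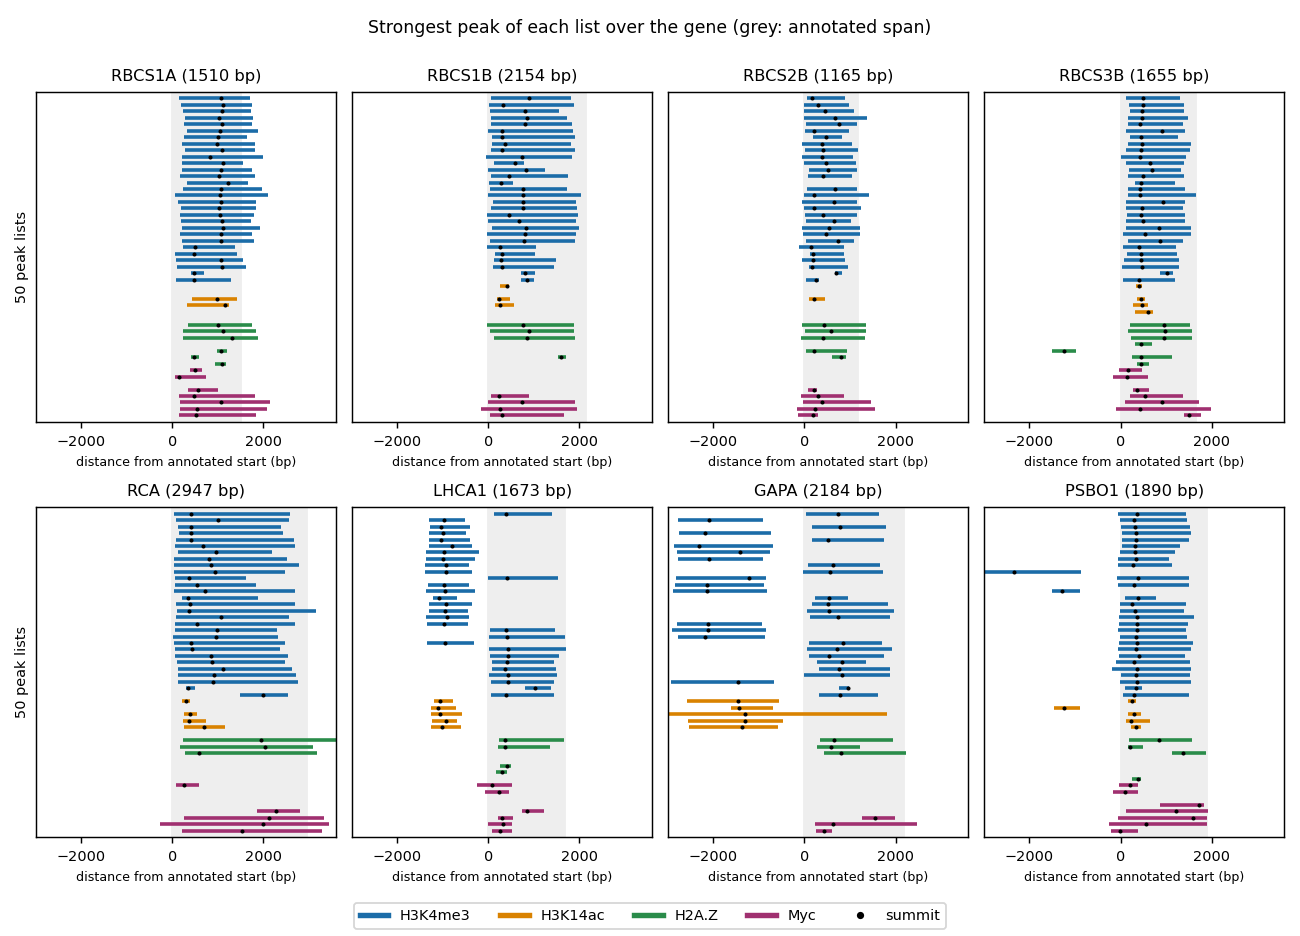
Position of the strongest peak over each gene in every list (1 line per list, colored by assay; black points are summits), in bp from the annotated start, with the annotated span in grey. The strongest H3K4me3 peak touched RBCS1A, RBCS1B, RBCS2B, RBCS3B and RCA in every list that had one, whereas 17 of 29 lists at LHCA1 and 12 of 29 at GAPA had their strongest peak upstream.

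The other photosynthesis genes of a list of 60 showed where the 8 stood. An H3K4me3 peak in all 29 lists was found at 49 of the 60, against 30.7% of all coding genes. The median percentile was 95.01 over 8 genes of electron transport and ATP synthase, 93.0 over 9 genes of photosystem II, 92.5 over 12 of photosystem I, 89.4 over 14 of the Calvin cycle and 75.3 over 17 of light harvesting. Over the 8 genes it was 86.6, and over all coding genes 50.7. In Col-0 the highest of the 60 were CP12-1 (AT2G47400), a redox switch of the Calvin cycle, with a median of 99.5, and TIM (AT2G21170), the chloroplast triose phosphate isomerase, with 99.2. The lowest were LHCB2.3 (AT3G27690) with 25.4 and LHCB1.2 (AT1G29910) with 22.0, both antenna proteins of photosystem II and both below RBCS2B, whose Col-0 median was 53.8. A peak was missing in at least 1 of the 4 Col-0 lists at 4 of the 60, which were LHCB1.1, LHCB1.2, LHCB1.4 and LHCB2.3. Stretches of 50 bases that occur again in the genome made up 20.5% of LHCB1.1, 10.6% of LHCB1.2 and 13.7% of LHCB1.4, but 0% of LHCB2.3.

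Whether H3K4me3 at these genes differed between plants with an SDG2 or TRBIP1 fusion and their controls was asked in 6 comparisons. Folds were put on the log2 scale and quantile-normalized within a comparison, and limma was fitted to all genes with a peak in every library, with Benjamini-Hochberg adjustment over all of them. Of 47 tests of the 8 genes, 0 passed an adjusted p of 0.05, and 2 had an unadjusted p under 0.05. Few of all genes tested were called either, but genes without a peak in every library were outside the fit. A peak in every SDG2-ZF list and in no Col-0 list was found at 2.81% of all coding genes. In rdd the share gained in this way was 3.37%, and 0 of the 8 genes were among either. The fit called 0.154% of all genes tested for SDG2-ZF against Col-0, 0% for SDG2(H1866K)cd against Col-0, 0.0233% for SunTag-SDG2 against rdr6, 0% for SDG2-ZF in rdd against rdd, 0.006% for TRBIP1-ZF against fwa and 0.1% for TRBIP1-dCAS9-MQ1v against fwa rdr6. Without adjustment 413 of 9470 genes and 406 of 13973 genes had a p under 0.05 in the comparisons with no call. Leaving out 1 library raised the counts over all genes from 25 to 138 for SDG2-ZF (without Col-0 replicate 2), from 4 to 150 for SunTag-SDG2 (without its replicate 1), from 0 to 51 in rdd (without rdd replicate 1), from 1 to 16 for TRBIP1-ZF (without fwa replicate 2) and from 17 to 335 for TRBIP1-dCAS9-MQ1v (without its replicate 2), where it was 0 without either fwa rdr6 library. None of the 8 genes was called in these fits. With so few libraries, a p above the threshold does not show that a gene did not differ.

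With SDG2-ZF, RBCS2B had the highest difference from Col-0 among the 8 genes. Its folds were 3.64, 4.97 and 4.04 in the 3 SDG2-ZF libraries and 3.45 and 3.41 in the 2 Col-0 libraries. The difference was 0.35 ± 0.14 on the scaled log2 fold (SE; unadjusted p = 0.038 and adjusted p = 0.489 by limma). With single libraries left out it ran from 0.23 (without Col-0 replicate 2) to 0.43. GAPA was lowest, with folds of 3.94, 4.63 and 5.32 against 6.68 and 6.16, a difference of −0.29 ± 0.14 (limma adjusted p = 0.556). The other 6 genes lay between −0.22 and 0.03 on this scale. With SDG2(H1866K)cd, the differences of the 8 genes ranged from −0.22 at RBCS1B to 0.09 at RCA, with adjusted p = 1.00 by limma for all 8.

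With SunTag-SDG2, LHCA1 had the lowest difference from rdr6. Its folds were 4.26 and 5.07 against 9.57 and 8.51, and the scaled difference was −0.50 ± 0.14 (limma, unadjusted p = 0.00271, adjusted p = 0.598). In all 4 of these libraries the strongest peak was the one over CXIP1. On the LHCA1 span itself the folds were 4.11 and 4.54 against 6.82 and 6.99, and the scaled difference was −0.18 ± 0.16 (limma adjusted p = 0.942). On the GAPA span alone the difference was −0.52 ± 0.15 (limma adjusted p = 0.572), with folds of 4.52 and 3.78 against 8.56 and 8.00. The other genes lay between −0.38 and 0.27 with their upstream kilobase. Before scaling, the median difference over all 17190 genes was −0.46, and 63.1% of all genes then passed the test in either direction, among them 7 of the 8 genes as lower. Relative to that shift of all genes, none of the 8 was called.

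**Figure D3:**
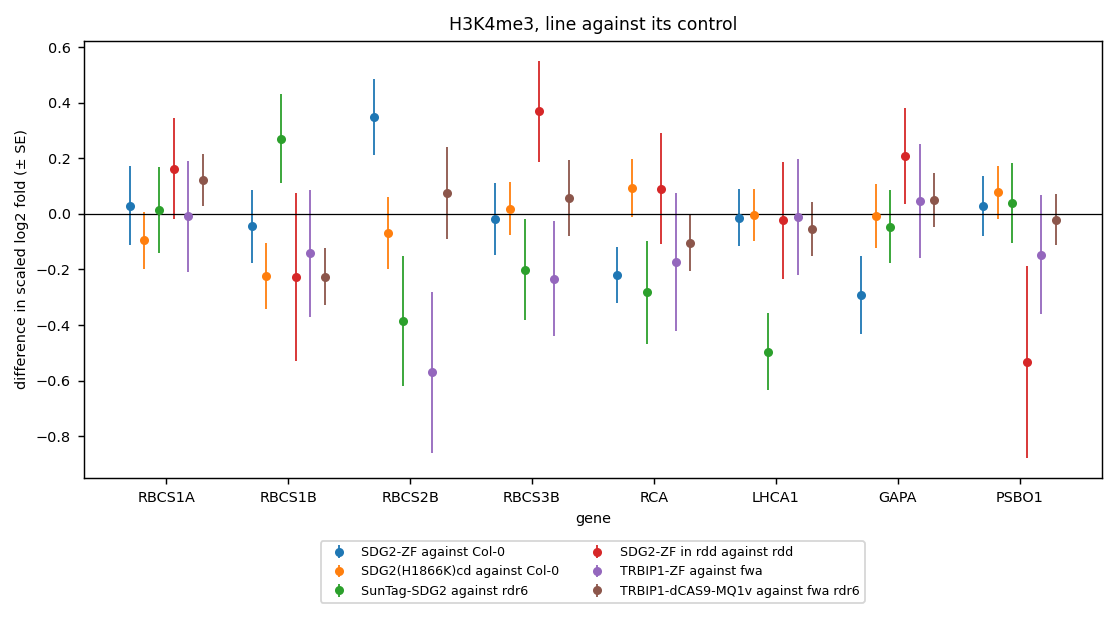
Difference in scaled log2 fold of H3K4me3 between each line and its control (y axis, points with SE) for the 8 genes (x axis) in 6 comparisons. The values run from −0.57 at RBCS2B in TRBIP1-ZF to 0.37 at RBCS3B in SDG2-ZF in rdd, and none passed the adjusted test. RBCS2B has no value in rdd, where 1 library lacked a peak.

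In rdd, SDG2-ZF and control libraries were compared at 7 genes, with differences from −0.53 at PSBO1 to 0.37 at RBCS3B. PSBO1 differed between the sets. Its folds were 8.54 in SDG2-ZF in rdd against 10.11 in rdd in set 6, and 3.87 against 5.16 in set 7, and on the gene span SDG2-ZF in rdd replicate 2 had a fold of 1.51. The scaled difference was 0.07 within set 6 and −1.13 within set 7, and 0.15 in the fit without SDG2-ZF in rdd replicate 2. On the gene span alone the difference of the fit was −0.92 ± 0.53. For RBCS3B the differences within the sets were 0.36 and 0.38. The interaction term of limma for the effect of SDG2-ZF in rdd against that in Col-0, a test added after the values were seen, passed at none of the 7 genes (lowest adjusted p = 0.954) and at 0.0721% of 13877 genes. It ranged from −0.57 ± 0.44 at PSBO1 to 0.50 ± 0.21 at GAPA.

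TRBIP1-ZF gave its lowest value at RBCS2B, with folds of 3.44 and 6.06 against 5.99 and 7.66 in fwa. The scaled difference was −0.57 ± 0.29 (limma adjusted p = 0.999), and it was −0.89 within set 8 and −0.25 within set 9. With single libraries left out it ran from −0.96 (without TRBIP1-ZF replicate 2) to −0.16 (without TRBIP1-ZF replicate 1). The other 7 genes lay between −0.23 and 0.05. With TRBIP1-dCAS9-MQ1v the differences from fwa rdr6 ranged from −0.23 at RBCS1B to 0.12 at RBCS1A (limma, lowest adjusted p = 0.698), the narrowest range of the comparisons with 2 libraries a group. The single lists of dCAS9-MQ1v alone and of the SDG2 line with no guide had a peak on all 8 genes. The percentiles there were 59.1 to 92.9 and 46.2 to 90.9, with RBCS2B lowest in both.

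H3K14ac was sparse at the photosynthesis genes. A peak was present in 29 of 48 pairs of a gene and a list, and in 22 of 48 once peaks that lay only upstream were left out. In the 4 lists of Col-0 and SDG2-ZF in set 3, 3 of the 8 genes (LHCA1, GAPA and PSBO1) had a peak in every list, against 65.8% of all coding genes. On the gene span alone 1 of the 8, PSBO1, did so, against 61.4% of all coding genes. Of the other photosynthesis genes 50 of 60 had a peak in every list. The list of rdd, with few peaks and a lower depth than that of SDG2-ZF in rdd, had none on the 8 genes. Without it 3 of the 8 again had a peak in every list, against 65.2% of all coding genes.

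At the small subunit genes the acetyl mark was weak or without a called peak. RBCS2B had a peak in 1 of 6 lists, with a fold of 1.76 in SDG2-ZF replicate 1. RBCS1B had folds of 2.12 in Col-0 replicate 1 and of 1.92 and 2.81 in SDG2-ZF, with no peak in Col-0 replicate 2. RBCS3B and RCA each had peaks in 4 of 6 lists, at percentiles of 25.4 to 40.9 and 26.3 to 42.0. RBCS1A had no peak in either Col-0 library and folds of 2.15 and 2.48 in the 2 SDG2-ZF libraries, at percentiles of 36.3 and 42.1. It was the only one of the 8 genes with a peak in every SDG2-ZF list and in no Col-0 list, a pattern found at 1.37% of all coding genes and at 1 of the 60 other photosynthesis genes. In SDG2-ZF in rdd RBCS1A had no peak.

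At LHCA1 the H3K14ac value was that of the neighbor. All 5 of its peaks lay upstream only, over CXIP1, and none touched LHCA1. At GAPA the peak was likewise centered upstream, over LWD2, with summits at −1455 to −1298 bp from the start. Its folds were 5.42 and 2.78 in Col-0 and 8.05 and 5.00 in SDG2-ZF. The groups overlapped, and the scaled difference was 0.67 ± 0.30 (limma, unadjusted p = 0.0445, adjusted p = 0.656). It was 1.204 without Col-0 replicate 1 and 0.14 without Col-0 replicate 2. Only in SDG2-ZF replicate 1 did this peak reach into GAPA, where it was 4938 bp long. Separate weaker peaks on the GAPA span had folds of 1.74 in SDG2-ZF replicate 2 and 2.23 in SDG2-ZF in rdd, and no peak touched the span in Col-0. PSBO1 had H3K14ac folds of 2.098 and 2.94 in Col-0 and 2.61 and 2.47 in SDG2-ZF, with a difference of 0.00 ± 0.18 (limma adjusted p = 0.997). The fit called 0.0332% of 18068 genes and none of the 3 photosynthesis genes that could be tested.

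H2A.Z at these genes differed between the sets of the labels, with Col-0 and SDG2-ZF present on both sides. This split was seen in the values before it was counted. In set 4, which held Col-0 replicate 1 and SDG2-ZF replicates 1 and 3, 7 of the 8 genes had a peak in all 3 lists, against 41.9% of all coding genes. In sets 5 and 6, which held Col-0 replicate 2, SDG2-ZF replicate 2, rdd and SDG2-ZF in rdd, RBCS3B was the only one of the 8 with a peak in all 4 lists, against 58.1% of all coding genes. Of the 60 other photosynthesis genes, 43 had a peak in every list of set 4 and 19 in every list of sets 5 and 6. At 6 of the 8 genes (the 4 RBCS genes, RCA and GAPA) every set 4 list stood above every list of the other sets, a pattern found at 4.04% of all coding genes. It was found at 21 of the 60 other photosynthesis genes and at 0 of the 9 seed storage genes.

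The small subunit genes were among the genes with the strongest H2A.Z peaks of the genome in set 4. RBCS1A had folds of 7.52 in Col-0 and 7.15 and 8.04 in SDG2-ZF there, at percentiles of 99.8 to 99.9. In set 5 it had no peak in Col-0 and a fold of 2.42 in SDG2-ZF, and in set 6 folds of 2.77 in SDG2-ZF in rdd and 2.78 in rdd. RBCS1B had folds of 6.91, 8.20 and 6.85 in set 4, no peak in set 5, and 1 peak in set 6 with a fold of 2.70. The set 4 peaks covered 77.9% to 85.1% of RBCS1A and 82.9% to 87.4% of RBCS1B, beginning between −31 and 333 bp from the start. RBCS3B had folds of 6.05, 6.69 and 5.98 in set 4, and 3.22, 3.10, 3.08 and 2.99 in the others. RBCS2B had 4.37, 5.96 and 4.05 in set 4, and 2 peaks with folds of 2.82 and 2.19 in the other 4 lists. Within set 4, the fold of Col-0 lay between those of the 2 SDG2-ZF lists at all 4 genes. By percentile, however, Col-0 was the highest list of set 4 at RBCS1A (99.92) and the lowest at RBCS2B (96.6).

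RCA had folds of 2.94, 3.78 and 1.82 and GAPA of 2.76, 2.61 and 2.45 in set 4, and both lacked a peak in all 4 lists of the other sets. LHCA1 had 3.08 and 3.16 in set 4, with none in SDG2-ZF replicate 3, and 2.42 and 2.297 in 2 of the other 4 lists. PSBO1 was lower, with 2.24, 2.35 and 1.89 in set 4 and a single peak of 2.69 in rdd. Set 4 ran from 12217 to 28280 peaks per list and the others from 21066 to 30556, so the list lengths overlapped. The seed storage genes, by comparison, had a peak in all 7 lists at 9 of 9, with a median percentile of 85.5 over the 7 lists, 85.5 in set 4 and 87.6 in sets 5 and 6. For SDG2-ZF against Col-0, RBCS3B was the only 1 of the 8 genes with a peak in all 5 libraries. Its unpaired difference was 0.11 ± 0.44 (limma adjusted p = 0.985), with −0.02 within set 4 and −0.19 within set 5. A fit blocked by set gave −0.10. The unblocked fit called 0% of 10799 genes, and 490 had an unadjusted p under 0.05.

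**Figure D4:**
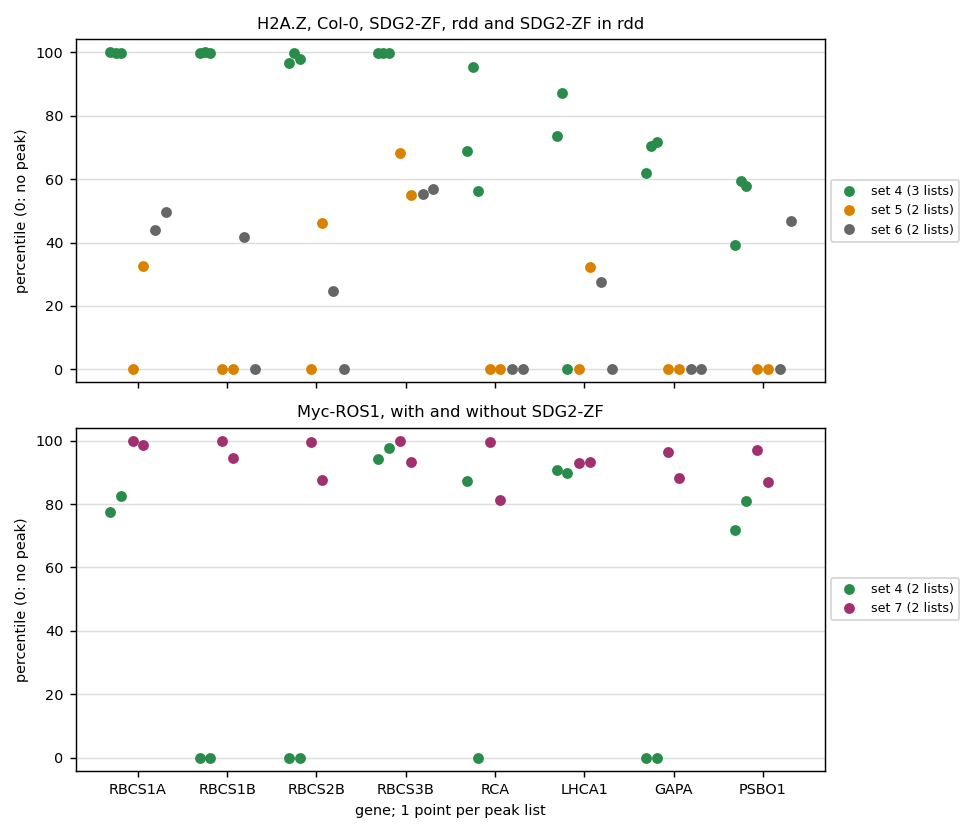
Percentiles of the strongest H2A.Z peak (upper panel, 7 lists) and of the strongest Myc peak in Myc-ROS1 plants (lower panel, 4 lists) at the 8 genes, with 1 point per list colored by set of the labels and 0 for no peak. The 3 H2A.Z lists of set 4 lay above the other 4 at 6 of 8 genes, and both Myc lists of set 7 lay above both of set 4 at 6 of 8 genes.

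A Myc peak was found on the photosynthesis genes in the tagged lines and not in the untagged list. In untagged Col-0, from set 6, none of the 8 genes had a peak, and 0.627% of all coding genes did. No untagged list from sets 4 or 7 was analysed here. In Myc-ROS1 plants of set 7, with and without SDG2-ZF, 8 of 8 genes had a peak in both lists. The share of all coding genes was 16.6%, and 39 of the 60 other photosynthesis genes had a peak in both. Over all 4 Myc-ROS1 lists 4 of 8 did so (RBCS1A, RBCS3B, LHCA1 and PSBO1), against 12.4%, and 30 of the 60 other photosynthesis genes did so. None of the 9 seed storage genes had a peak in every Myc-ROS1 list.

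Here too the sets differed, as seen in the values before it was counted. RBCS1A had folds of 2.299 in Myc-ROS1 and 2.76 in Myc-ROS1 with SDG2-ZF in set 4, and of 6.52 and 3.68 in set 7. RBCS1B, RBCS2B and GAPA had no peak in set 4, whereas in set 7 their folds were 5.53 and 2.80, 5.05 and 2.33, and 3.27 and 2.37. Both set 7 lists stood above both set 4 lists at 6 of 8 genes (RBCS1A, RBCS1B, RBCS2B, LHCA1, GAPA and PSBO1), a pattern found at 7.86% of all coding genes. The lists of set 7 held fewer peaks, 7924 and 5580, than those of set 4, 9724 and 14212. At RBCS3B the order of the 2 lines differed between the sets. There the folds were 3.14 in Myc-ROS1 and 4.25 with SDG2-ZF in set 4, but 6.46 and 2.67 in set 7. Its scaled difference was 0.24 within set 4, −1.08 within set 7 and −0.42 ± 0.40 in the fit (adjusted p = 1.00 by limma). The fit called 0% of 3412 genes, with 53 at an unadjusted p under 0.05, and none of the 4 photosynthesis genes tested.

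Myc-JMJ14 had a peak on 4 of the 8 genes (RBCS1A, RBCS2B, RBCS3B and PSBO1) in all 3 lists, with and without TRBIP1-ZF, against 3.49% of all coding genes. Of the 60 other photosynthesis genes, 28 had a peak in all 3 lists. RBCS1A had folds of 4.35 in Myc-JMJ14 and 6.27 and 6.23 in Myc-JMJ14 with TRBIP1-ZF, and PSBO1 of 3.82, 4.66 and 4.62. RBCS1B, RCA and LHCA1 had no peak in Myc-JMJ14 and a peak in both lists with TRBIP1-ZF, and GAPA had one in replicate 2 alone. The pattern of these 3 genes was found at 4.1% of all coding genes and at 19 of the 60 other photosynthesis genes. The Myc-JMJ14 list, a single library, held 1572 peaks and the lists with TRBIP1-ZF 5678 and 3814. This difference thus has no replicate check and lies between lists of unequal length. The Myc-JMJ14 library was also the least deeply sequenced of the 3. What part the number of peaks or the depth had in it was not tested. The peaks of all Myc lists on the 8 genes had a median summit 436 bp after the start and covered a median of 44.8% of the gene. For H3K4me3 the median was 80.2%, but the Myc share differed between sets. In the 3 Myc lists of set 7 its medians were 88.3% to 100% at the 4 RBCS genes, RCA and PSBO1. They were 69.9% at GAPA and 30.8% at LHCA1. In set 4 they ran from 16.7% at RCA to 50.7% at RBCS3B, where a peak was called.

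Over all 50 lists, the coding genes outside the photosynthesis and seed lists whose percentiles were closest to the median profile of the 8 genes were SAMDC (AT3G02470), an enzyme of polyamine synthesis, with a mean absolute difference of 8.45 percentile points. They were followed by BZIP53 (AT3G62420), a transcription factor, with 9.66, EXGT-A3 (AT2G01850), an enzyme of the cell wall, with 10.2, and AGP15 (AT5G11740) and PUP14 (AT1G19770), each with 10.5. The 8 genes themselves were at 7.32 to 26.6 from their own median profile. RCA was nearest, and GAPA with 17.3 and RBCS2B with 26.6 were farthest.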

How the data were processed

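ChIP-seq of leaf chromatin was read from 50 deposited peak lists, and 41 of the 91 samples had no list analysed here. Per the labels and methods, the authors trimmed reads with Trim Galore 0.6.5, aligned them to TAIR10 with Bowtie2 2.1.0, handled alignments with SAMtools 1.9 and called peaks per sample with MACS2 2.2.1. No control of the peak calling is named in the sources used here. The deposited values are the fold enrichment of each peak, a ratio, and its −log10 p and −log10 q. The lists hold no read counts. The read totals that the study gives for most libraries entered no value or test, and served only where sequencing depth is compared in words. Scores in the lists were not used. In 23 lists every peak had a −log10 q of at least 2, and 27 lists went lower.

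Of 863269 lines, 1490 on the organelle genomes were dropped and 10375 repeated intervals were counted as 1 peak, with the largest fold. A gene region was the span plus 1 kb upstream, and an overlap of 1 bp counted. Main tests used limma 3.58.1 in R 4.3.3 (trend, two-sided, Benjamini-Hochberg over all genes with a peak in every library, threshold 0.05) on quantile-normalized log2 folds, and the script was tested on simulated data. Tables were made with pandas 2.3.3 under Python 3.11.15. Libraries with the same number shared a set of the labels in the rdd, TRBIP1-ZF, H2A.Z and Myc-ROS1 comparisons. The main fits did not use this pairing, so their differences, SEs and p-values are unpaired. A block was fitted only as an alternative. The deviations of same-numbered libraries correlated at 0.13 to 0.43 in these comparisons, and the blocked fit called none of the 8 genes there. All 8 genes were named. Other photosynthesis genes were named when called, when without an H3K4me3 peak in a Col-0 list, or as the 2 highest and 2 lowest in Col-0. The most similar genes were the 5 with the smallest mean absolute difference in percentile. The genes, lists and tests were chosen with earlier results of these data known.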

Additional observations from a re-analysis of the deposited data

How the results depend on the processing

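In 7 of the 9 comparisons tested with limma, 0 of the 8 genes were called under every alternative that was run. In designs of so few libraries these counts of 0 are no sign of stability. The alternatives were other scalings, stricter peaks, other gene regions, lists cut to equal length, single libraries left out and a replicate block. In SunTag-SDG2 against rdr6, 7 genes were called with folds as deposited, and LHCA1 then had −0.96. In H3K14ac of SDG2-ZF against Col-0, 1 gene, GAPA, was called with a replicate block (difference 0.67, limma adjusted p = 0.00209). That fit had 1 residual degree of freedom and called 1.84% of all 18068 genes, against 0.0332% in the main fit. The value is that of the peak centered over LWD2, and on the gene span alone GAPA could not be tested. Without Col-0 replicate 1 the difference of GAPA was 1.204. In the comparisons within 1 set the samples share only a number, their deviations correlated at −0.0008 to 0.13, and the block moved the count of all genes called from 25 to 0 for SDG2-ZF, from 0 to 1 for SDG2(H1866K)cd, from 4 to 17 for SunTag-SDG2, from 17 to 468 for TRBIP1-dCAS9-MQ1v and from 6 to 333 for H3K14ac. The difference of PSBO1 in rdd over single libraries left out was −1.17 to 0.15, the latter without SDG2-ZF in rdd replicate 2. Without scaling the median of all genes moved to −0.15 for SDG2-ZF, −0.46 for SunTag-SDG2, 0.15 in rdd and −0.12 for H2A.Z. With lists cut to equal length, none of the 8 genes was left to test in H2A.Z.

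For a peak in every list, a −log10 q of at least 5 left 2 of 7 genes for H3K4me3 and 0 of 1 for H2A.Z. Alternatives chosen after seeing the data gave 3 genes for H3K14ac without rdd (65.2% of all coding genes), 7 for H2A.Z in set 4 (41.9%), and 3 for Myc without untagged Col-0 (1.22%), or 4 in Myc-ROS1 lists and 4 in Myc-JMJ14 lists. The H2A.Z count over lists left out in turn was 1 to 2. Over their alternatives the split between sets counted 5 to 7 of the 8 genes for H2A.Z, beside 3.18% to 7.42% of all coding genes, and 5 to 6 for Myc-ROS1, beside 5.16% to 7.86%. Values within a set have no replicates and no test. The lists hold no read counts, and a missing peak shows only that none was called.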
